A study of Mus musculus with 2 samples.

Results

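Oxt and Avp encode the prohormones of oxytocin and vasopressin. They are 2 of the 29809 genes listed in the tables of a Drop-seq study of the mouse arcuate nucleus and median eminence, and were followed in 3889 of 4600 deposited cell barcodes. The pair was chosen by its measured pattern in these same libraries, namely a few barcodes with very many UMIs beside low counts in every cell class, so the concentration and the difference between libraries are given as descriptions, with no test. A UMI is a molecular identifier that marks 1 captured transcript. A barcode is called a cell here if 300 or more genes were read in it and no more than 20% of its UMIs were mitochondrial, although some barcodes may share a bead, as described with the barcode families.

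The Irx3/5dHet library pooled tissue of 5 CD-1 mice labelled Irx3/5+/-, which are heterozygous for both Irx3 and Irx5. The WT library pooled tissue of 7 wild type CD-1 mice. Both pools were taken at an age of 7 to 8 weeks, and live cells were sorted before capture. Nothing maps cells to mice, so each genotype is 1 sample, no difference between the libraries has a replicate check, and genotype, pool and dissection cannot be told apart. The Irx3/5dHet library gave 1484 cells with 2862026 UMIs and a median of 1160.5 UMIs per cell. The WT library gave 2405 cells with 4282490 UMIs and a median of 1274 UMIs per cell. All intervals below are exact 95% intervals that cover counting error only.

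Both hormones are made as prohormones in which the short peptide is followed by its carrier, a neurophysin, and both are cut out and stored in dense-core granules. Large (magnocellular) neurons of the paraventricular and supraoptic nuclei send them to the posterior pituitary through the median eminence. Oxytocin acts in birth, milk ejection and social behaviour, and vasopressin in water balance. Vasopressin is also made by neurons of the suprachiasmatic nucleus, the circadian clock of the brain, whose dorsal shell holds vasopressin cells and whose core holds Vip cells. None of these nuclei belongs to the labelled tissue, but they lie beside it or send axons through it. The labelled tissue was present in both libraries: Agrp and Pomc, which mark arcuate neurons, had 1375 and 1774 UMIs in the Irx3/5dHet library and 357 and 1350 UMIs in the WT library.

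The 2 genes lie tail to tail on chromosome 2 (GRCm38, GENCODE vM21), with 3565 bases between their 3′ ends. Oxt (ENSMUSG00000027301) is on the plus strand at chr2:130576173-130577054. Avp (ENSMUSG00000037727) is on the minus strand at chr2:130580620-130582554. Each has 3 exons. The codons of the hormone and of the GKR signal that follows it lie in exon 1, at chr2:130576267-130576302 for Oxt and chr2:130582437-130582472 for Avp. They are shown, 5′ to 3′ on the gene's own strand with the bases that differ in capitals, because they hold what sets the peptides apart.

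Oxt hormone codons: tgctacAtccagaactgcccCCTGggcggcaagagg

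Avp hormone codons: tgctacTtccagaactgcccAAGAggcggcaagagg

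These 36 bases differ at 5 positions. The neurophysin exon is much closer still: exon 2 has 202 bases in each gene, of which 193 (95.5%) are identical, against 57.3% of the aligned columns of exon 1 and 38.7% of those of exon 3. The longest run that both transcripts share is 127 bases, 2 from exon 1 and 125 from exon 2. It is shown because a read that lies inside it cannot be given to either gene.

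Run shared by Oxt and Avp: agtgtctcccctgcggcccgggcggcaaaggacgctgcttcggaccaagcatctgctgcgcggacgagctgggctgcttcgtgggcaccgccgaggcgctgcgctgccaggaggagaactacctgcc

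The run ends 255 bases before the 3′ end of the Oxt transcript and 307 bases before that of Avp. Drop-seq reads the 3′ part of a transcript, so such reads can be in the libraries. The sources used here do not say how reads that match both genes were counted. A low count of 1 gene in a cell with a very high count of the other is therefore uncertain.

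Several of the highest cells had barcodes that differed in 1 base. In the Irx3/5dHet library, 385 pairs of barcodes differed in the 12th and last base alone, and no other position gave more than 4 such pairs. In the WT library 523 pairs differed there alone, 27 pairs differed at position 11 alone, and no other position gave more than 4. In Drop-seq, a bead whose barcode was made a base short is known to be read with the base after it, so that 1 bead can give up to 4 barcodes with the same first 11 bases. Such families held 183 of 1484 Irx3/5dHet cells (12.3%) and 258 of 2405 WT cells (10.7%). Both of the largest concentrations of the hormone genes were families of this kind. They are printed with the last base in capitals, because the count of oxytocin and vasopressin cells depends on whether each is taken as 4 cells or as 1 bead.

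Irx3/5dHet cell with 1021 Oxt and 89 Avp UMIs: tctccaatgttA

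Irx3/5dHet cell with 1016 Oxt and 98 Avp UMIs: tctccaatgttG

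Irx3/5dHet cell with 977 Oxt and 82 Avp UMIs: tctccaatgttC

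Irx3/5dHet cell with 894 Oxt and 79 Avp UMIs: tctccaatgttT

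WT cell with 611 Avp and 43 Oxt UMIs: gcgaggaatgtG

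WT cell with 509 Avp and 42 Oxt UMIs: gcgaggaatgtC

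WT cell with 500 Avp and 43 Oxt UMIs: gcgaggaatgtA

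WT cell with 422 Avp and 28 Oxt UMIs: gcgaggaatgtT

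The barcodes of a family were compared over all genes but Oxt and Avp. The chi-square per degree of freedom between 2 barcodes, which is near 1 when both are draws from the same RNA, lay between 0.961 and 1.14 for the 6 pairs of the Irx3/5dHet family. Among 990 pairs of other Irx3/5dHet neurons of like depth its median was 2.44, and 0 pairs were as low as 1.14. In the WT family it lay between 0.636 and 1.34, against a median of 3.54 among 8646 pairs of other WT neurons, 166 of which were at or below 1.34. These values describe likeness, and whether a family is 1 bead was not tested directly. A barcode outside the rule, with 329 UMIs in 209 genes, continued the Irx3/5dHet family, since it is the same 11 bases after an added base, in capitals here.

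Irx3/5dHet barcode outside the rule, with 94 Oxt and 7 Avp UMIs: Ttctccaatgtt

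Values are given per deposited barcode unless a sentence says that barcodes were merged by their first 11 bases, and merged barcodes are called beads. The barcode families were noticed after the data were seen.

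Most Oxt UMIs of the Irx3/5dHet library lay in 1 barcode family. There, 4357 Oxt UMIs were counted, or 1522 CPM (UMIs of the gene in 1e6 UMIs; 1477 to 1568), against 568 in WT cells, or 133 CPM (122 to 144). The printed family held 3908 of the 4357 (89.7%), and Oxt made up 17.7% of all its UMIs. The ratio over all cells, Irx3/5dHet over WT, was 11.5 (10.5 to 12.5), or 3.52 on the log2 scale. Leaving out the top family of each gene in each library brought it to 2.08 (1.75 to 2.48). Of 10196 genes with at least 100 UMIs, 1.47% were at least 2-fold higher in Irx3/5dHet cells, and Oxt was among them, as its choice implies.

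Avp had nearly equal counts in the libraries. They were 4733 UMIs in Irx3/5dHet cells, or 1654 CPM (1607 to 1702), and 4739 UMIs in WT cells, or 1107 CPM (1075 to 1139). The ratio was 1.49 (1.44 to 1.56), or 0.58 on the log2 scale, which is under 2-fold. Its size depended on a few barcodes and on how they were taken. With the top Avp barcode left out of each library, which removes 1892 UMIs from Irx3/5dHet but 611 of the 2042 of the WT family, the log2 ratio was 0.05 (-0.02 to 0.12). With the whole top Avp family left out of each library it was 0.66 (0.58 to 0.73), and with the top families of both genes left out it was 0.48 (0.40 to 0.56). As a mean over cells of UMIs per 10000, which gives each cell the same weight, it was -0.14.

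**Figure D1:**
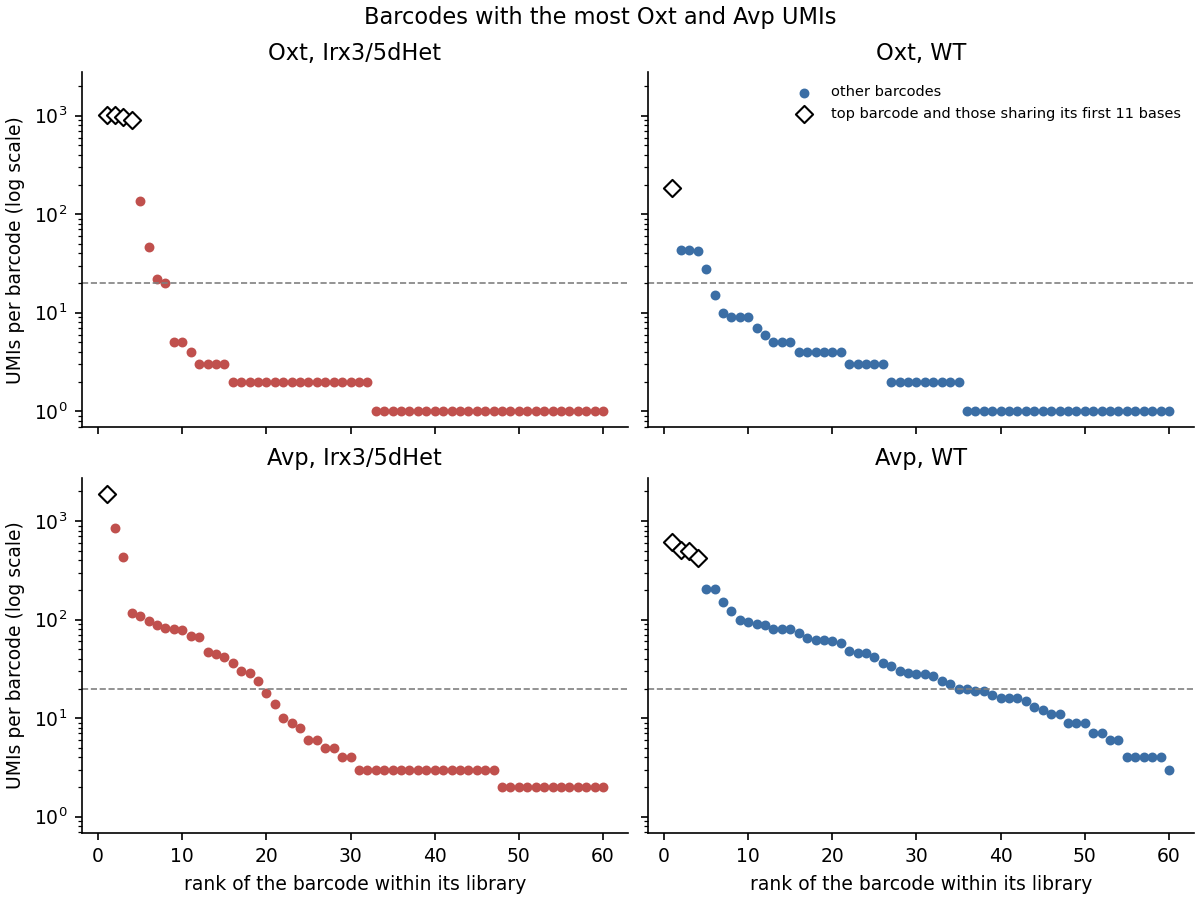
UMIs of Oxt (top) and Avp (bottom) in the 60 barcodes of each library with the most, Irx3/5dHet left and WT right, by rank, on a log scale; diamonds are the top barcode and the barcodes that share its first 11 bases, and the dashed line marks 20 UMIs. The 4 diamonds of Oxt in Irx3/5dHet lie between 894 and 1021, the next barcode has 137, and all but 8 lie at 5 or below.

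Cells with at least 20 UMIs of a gene, called high cells, held most of its transcripts. For Oxt there were 8 in the Irx3/5dHet library with 94.9% of its UMIs, and 5 in the WT library with 60.2%. For Avp there were 19 in the Irx3/5dHet library with 89.2% of the UMIs, and 36 in the WT library with 88.6%. Merged into beads, these were 5 and 2 high beads for Oxt and 16 and 32 for Avp, Irx3/5dHet before WT in each pair. Just inside and just outside the limit, the lowest Oxt high cell had 20 UMIs and the next cell 5 in Irx3/5dHet, and 28 and 15 in WT. For Avp these values were 24 and 18 in Irx3/5dHet and 20 and 19 in WT, so that Avp counts ran on without a gap while Oxt counts in Irx3/5dHet did not.

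Below the limit, single UMIs prevailed. Oxt was found in 196 Irx3/5dHet cells (13.2%), 164 of which had 1 UMI, and in 124 WT cells (5.16%), 89 of which had 1 UMI. Avp was found in 359 Irx3/5dHet cells (24.2%), 253 of them with 1 UMI, and in 325 WT cells (13.5%), 239 of them with 1 UMI. Both genes reached 20 UMIs in the same cell in 7 Irx3/5dHet cells from 4 beads and in 4 WT cells from 1 bead.

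Genes other than the hormones set a group of high cells apart from the rest. Clusters were built with Oxt and Avp left out, and 1 neuron cluster was led by Vip, Rgs16, Nms, Prok2 and Vipr2, which mark the suprachiasmatic nucleus. It is called suprachiasmatic-like. It held 12 of the 19 Avp high cells of the Irx3/5dHet library and 28 of the 36 of the WT library, and 0 Oxt high cells of either.

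In the suprachiasmatic-like high cells, Avp ran from 24 through a median of 46 to 116 UMIs in Irx3/5dHet and from 20 through a median of 59 to 206 UMIs in WT. Avp made up a median of 4.14% of a cell's UMIs in Irx3/5dHet and 2.55% in WT, and at most 5.67% in Irx3/5dHet and 6.71% in WT. Of the 10 suprachiasmatic markers listed, 8 were found in the high cells of Irx3/5dHet and 10 in those of WT, unevenly. Rgs16, a regulator of G protein signalling, was found in 10 of 12 Irx3/5dHet and 24 of 28 WT cells. Rorb, a nuclear receptor, was found in 11 of 12 Irx3/5dHet and 20 of 28 WT cells, and the secreted peptide Nms in 8 of 12 Irx3/5dHet and 16 of 28 WT cells. Prok2, Six6, Lhx1, Syt10 and Vipr2 were each found in 3 to 5 Irx3/5dHet cells and 4 to 15 WT cells. Vip was found in 0 Irx3/5dHet and 2 WT cells, and Grp in 0 and 1. Otp, Sim1 and Pou3f2, transcription factors of paraventricular and supraoptic neurons, had 0 UMIs in all 40.

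The remaining high cells were 8 barcodes from 5 beads in Irx3/5dHet and 9 barcodes from 6 beads in WT. They came from several clusters and are a remainder rather than a named kind. The suprachiasmatic list of 10 genes came to 48.6 CPM in those of Irx3/5dHet and 288 CPM in those of WT, all of it from 1 cell in each library, while the paraventricular and supraoptic list of 9 genes came to 1994 CPM in Irx3/5dHet and 1729 CPM in WT. In the suprachiasmatic-like high cells the order was the opposite, with 6349 CPM and 5454 CPM of the first list and 342 CPM and 186 CPM of the second, each in Irx3/5dHet and WT. In the high cells outside the suprachiasmatic-like cluster, Pou3f2 had 13 UMIs in Irx3/5dHet and 4 in WT, Otp 7 and 2, Sim1 8 and 0, and Calb1, a calcium-binding protein, 31 and 23. Esr2 and Crh had 0 UMIs in these cells of both libraries. Calb1 gave 31 of the 82 UMIs of the paraventricular and supraoptic list there in Irx3/5dHet, and 23 of the 30 in WT. In the suprachiasmatic-like high cells it gave 6 of the 7 in Irx3/5dHet and 13 of the 14 in WT. Calb1 was also read in neurons that were not high, at 278.5 CPM with both libraries summed. Transmitter genes differed too. Slc17a6, the glutamate transporter of hypothalamic excitatory neurons, had 5 and 6 UMIs in the high cells of other clusters and 0 and 1 in the suprachiasmatic-like ones, whereas Gad2, which makes GABA, had 0 and 3 in the first and 12 and 57 in the second, again Irx3/5dHet and then WT. Clusters were drawn from the same cells, so these contrasts are descriptions, with no test.

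The cell with most Avp was an Irx3/5dHet one with 1892 Avp and 137 Oxt UMIs among 9249, so that Avp was 20.5% of its RNA. It carried 8 UMIs of Pdyn, the dynorphin precursor that vasopressin neurons are known to store with their hormone, 5 of Pou3f2 and 3 of Otp. A second Irx3/5dHet cell had 433 Avp and 20 Oxt UMIs and 4 UMIs of Pou3f2. One more had 854 Avp and 46 Oxt UMIs, but fell into the pars tuberalis-like cluster: it also held 18 UMIs of Tshb and 15 of Cga, which encode the subunits of thyrotropin, beside 2 of Sim1 and 1 of Otp. The doublet caller did not mark this cell, but it marked 0.489% of all cells, too few to tell.

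The printed Oxt family of Irx3/5dHet held 3908 Oxt and 348 Avp UMIs, and Oxt was 16.7% to 19.2% of the UMIs of each barcode. Each of the 4 barcodes had 1 or 2 UMIs of Sim1 and 5 to 7 of Calb1. Cck, a peptide known from oxytocin neurons, was found in all 4, with 1 to 7 UMIs. In the WT library the top Oxt cell had 186 Oxt UMIs and 1 Avp UMI among 1070, and none of the 9 paraventricular and supraoptic markers, and the other 4 Oxt high cells of WT were the printed Avp family. A last Oxt high cell in Irx3/5dHet had 22 Oxt UMIs and 1 Avp UMI among 612, with 19.9% mitochondrial UMIs, close to the limit of 20%.

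**Figure D2:**
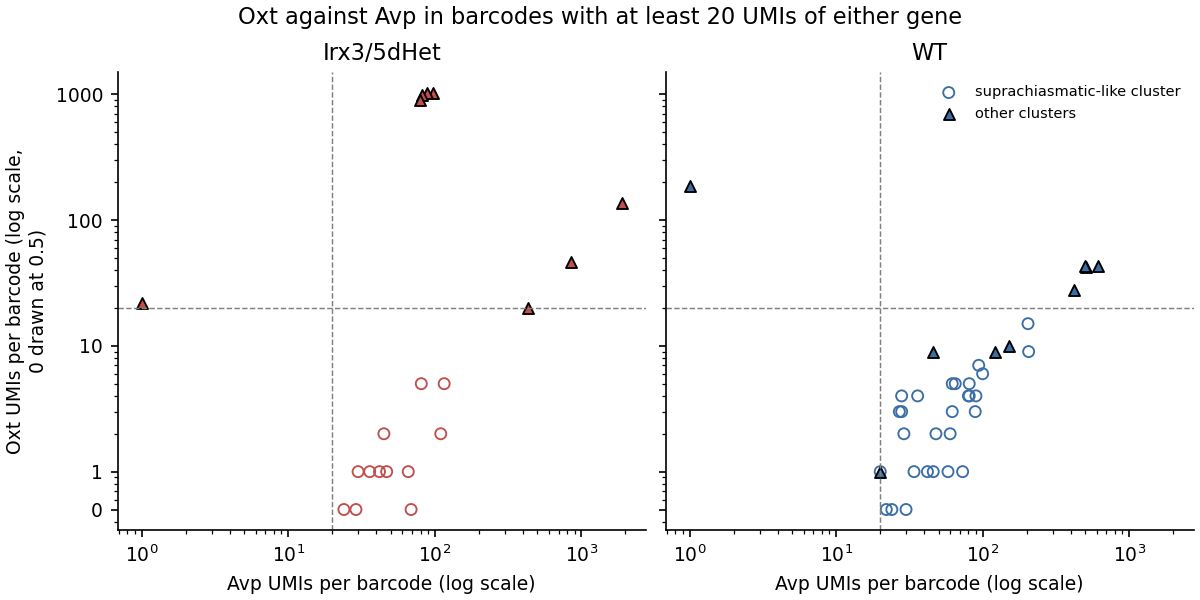
Oxt against Avp UMIs, both on log scales with 0 drawn at 0.5 on the Oxt axis, for the 20 Irx3/5dHet (left) and 37 WT (right) barcodes with at least 20 UMIs of either gene; open circles are in the suprachiasmatic-like cluster and triangles in others, and dashed lines mark 20 UMIs. The circles stay at or under 206 Avp and 15 Oxt UMIs, and the 4 triangles near 1000 Oxt UMIs are 1 barcode family.

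Oxt was found beside Avp in the Avp high cells, at a low proportion. Per 100 Avp UMIs, Avp-led high cells outside the suprachiasmatic-like cluster had 6.39 Oxt UMIs in Irx3/5dHet (5.51 to 7.36; 203 of Oxt and 3179 of Avp in 3 cells) and 7.77 in WT (6.65 to 9.02; 185 and 2382 in 8 cells). Suprachiasmatic-like high cells had 2.73 in Irx3/5dHet (1.64 to 4.30; 19 and 695) and 5.28 in WT (4.25 to 6.48; 96 and 1819). In the printed WT family the 4 barcodes gave 7.04, 8.25, 8.60 and 6.64 Oxt UMIs per 100 Avp. The exon 2 that both genes share stands beside all of these values, and whether part of the counts are misassigned reads was not tested. The 2 cells led by Oxt with 1 Avp UMI each had 22 Oxt UMIs in Irx3/5dHet and 186 in WT. That is 4.55 and 0.538 Avp UMIs per 100 Oxt, against 8.39 to 9.65 in the barcodes of the printed Oxt family.

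The suprachiasmatic-like cluster had several times the Avp level of other neurons in both libraries. It held 65 Irx3/5dHet cells (63 beads) and 134 WT cells (114 beads). Avp stood at 7049 CPM in Irx3/5dHet (6567 to 7556) and 7742 CPM in WT (7412 to 8083), against 1629 CPM and 1502 CPM in the other neurons of Irx3/5dHet and WT. The ratio within the cluster was 0.910 (0.838 to 0.988). The Irx3/5dHet level was the lower one in 10 of 11 alternatives. These reuse the same 2 libraries and replicate nothing, and leaving out the top families could not change this cluster, which holds none of them. The Irx3/5dHet level was the higher one with at most 10% mitochondrial UMIs, at 7813 CPM in Irx3/5dHet and 7775 CPM in WT. The cluster gave 16.8% of all Avp UMIs of the Irx3/5dHet library and 43.7% of those of the WT library. High cells outside it gave 74.5% in Irx3/5dHet and 50.3% in WT, and cells under 20 UMIs of either gene outside it the remainder.

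Avp was uneven within the cluster. Of 65 Irx3/5dHet cells, 29 had no Avp UMI and 12 (18.5%) had at least 20, and of 134 WT cells, 71 had none and 28 (20.9%) had at least 20. The median cell had 1 Avp UMI in Irx3/5dHet and 0 in WT. Vip was high in other cells of the cluster: at least 20 UMIs were found in 3 Irx3/5dHet cells and 14 WT cells, and both genes were high in 0 Irx3/5dHet cells and 1 WT cell. At a limit of 5 UMIs, 7 Irx3/5dHet and 26 WT cells had Vip, 20 and 46 had Avp, and 0 and 1 had both. In both libraries, Avp and Vip UMIs lay mostly in different cells of the cluster. Over the whole cluster Vip had 2107 CPM in Irx3/5dHet and 4729 CPM in WT, Nms 239 and 434 CPM, Rgs16 1426 and 1757 CPM, and Six6, a transcription factor of the nucleus, 399 and 408 CPM, in that order of libraries.

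**Figure D3:**
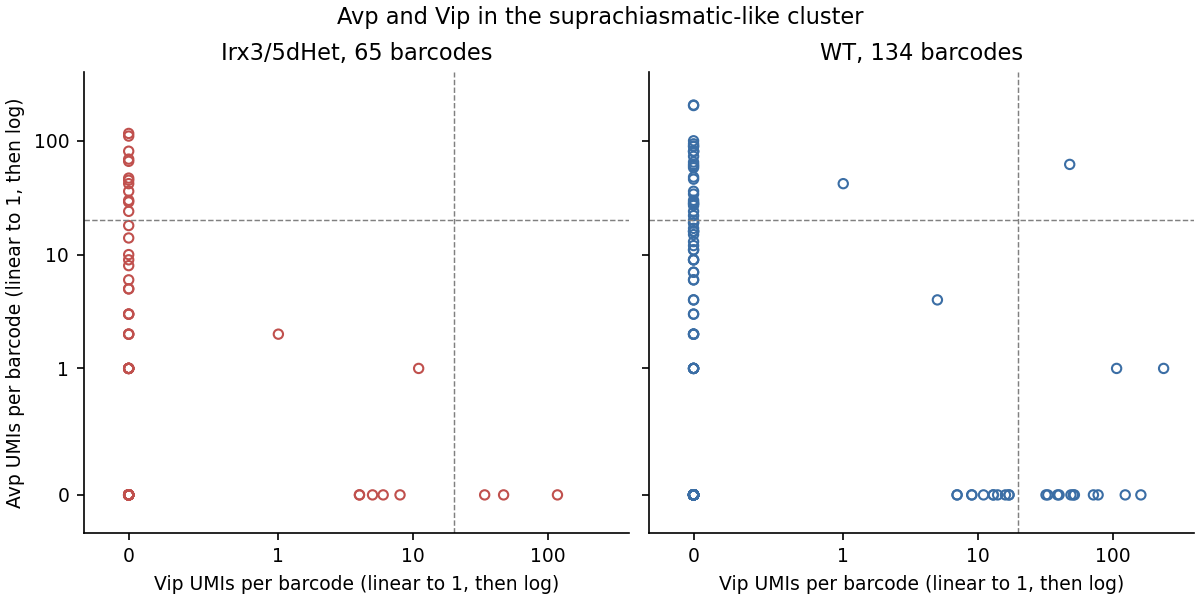
Avp against Vip UMIs of each barcode of the suprachiasmatic-like cluster, Irx3/5dHet left and WT right, on axes that are linear to 1 and log beyond; dashed lines mark 20 UMIs. Points lie along either axis, and 1 WT barcode lies above 20 UMIs of both genes.

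Both genes were also found at a low level in nearly every cell class. In cells under 20 UMIs of either gene, Oxt was found in 8 of 9 named classes other than neurons in Irx3/5dHet and in all 9 in WT, and Avp in all 9 in both. The exception was the endothelial-like class of Irx3/5dHet, whose 13 cells allow a level of up to 321 CPM. Outside the pars tuberalis-like cell with 854 Avp UMIs, no cell of these classes had more than 3 UMIs of either gene. Over all cells other than neurons, the Oxt level was 87.6 CPM in Irx3/5dHet (69.8 to 109; 83 UMIs in 776 cells) and 23.0 CPM in WT (17.3 to 30.01; 54 UMIs in 1576 cells), a ratio of 3.81 (2.67 to 5.47). The Avp level there was 167 CPM in Irx3/5dHet (142 to 195; 158 UMIs) and 69.4 CPM in WT (59.2 to 80.9; 163 UMIs), a ratio of 2.40 (1.92 to 3.01). Of 6482 genes with at least 100 UMIs in these cells, 1.51% were at least 2-fold higher in Irx3/5dHet.

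Class by class, the low level of Oxt was higher in Irx3/5dHet than in WT in 8 of 9 classes, and the intervals of the libraries did not overlap in 4: ependymal-like, fibroblast-like, oligodendrocyte-like and tanycyte-like cells. Avp was higher in all 9, with intervals apart in ependymal-like and oligodendrocyte-like cells. How many of all genes differ in this way by class was not counted, so these counts cannot show that the pair is unusual. Oligodendrocytes, which make myelin and are not known to make either hormone, had 107 CPM of Oxt in Irx3/5dHet (64.4 to 167) and 19.7 CPM in WT (9.02 to 37.4). They had 169 CPM of Avp in Irx3/5dHet (114 to 241) and 52.6 CPM in WT (33.7 to 78.3). Ependymal-like cells had 84.8 CPM of Oxt in Irx3/5dHet (45.1 to 145) and 3.46 CPM in WT (0.0876 to 19.3), where 1 UMI was found in 182 cells. Over all cells, Oxt stood at 1522 CPM in Irx3/5dHet and 133 CPM in WT, and Avp at 1654 CPM and 1107 CPM. As UMIs summed over cells, both the level over all cells and the low level were thus higher in Irx3/5dHet for both genes. As a mean over cells, the log2 ratio of Avp was -0.14 instead. Without the top cell of each library it was 0.05 (-0.02 to 0.12). In suprachiasmatic-like neurons, high cells included, Oxt was lower in Irx3/5dHet, with a ratio of 0.566 (0.357 to 0.867). Their low level of Avp was lower too, at 1092 CPM in Irx3/5dHet and 1312 CPM in WT. The part of RNA free in the suspension was not tested.

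Neurons outside the suprachiasmatic-like cluster and under 20 UMIs of either gene stood at the same low level. Their Oxt level was 64.8 CPM in Irx3/5dHet (53.4 to 77.8) and 18.2 CPM in WT (12.3 to 26.0), neither above that of cells other than neurons. Their Avp level was 143 CPM in Irx3/5dHet (125.5 to 161) and 73.9 CPM in WT (61.4 to 88.3). The suprachiasmatic-like cells were the exception for Avp, with 1092 CPM in Irx3/5dHet (890 to 1327) and 1312 CPM in WT (1155 to 1484) even when their high cells were left out.

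**Figure D4:**
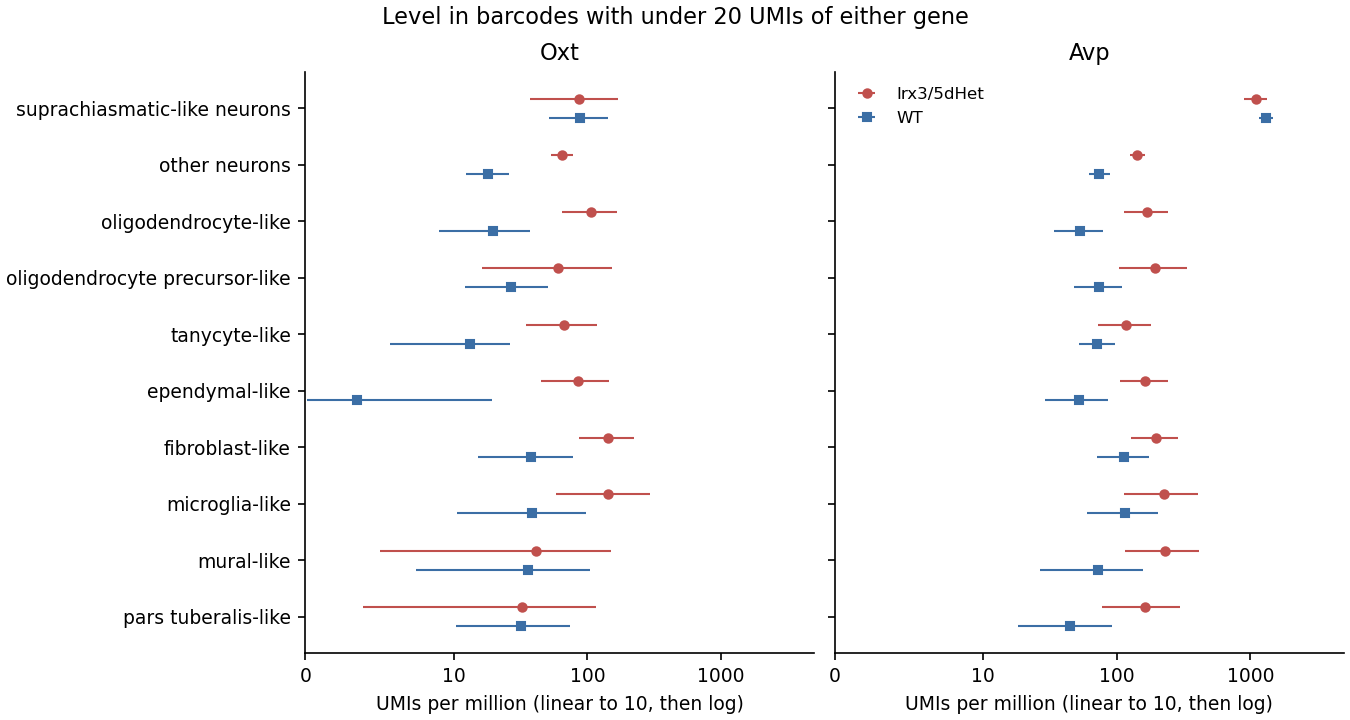
CPM of Oxt (left) and Avp (right) in cells under 20 UMIs of either gene, by class, on an axis that is linear to 10 and log beyond; circles are Irx3/5dHet, squares WT, and bars exact 95% Poisson intervals (endothelial-like cells, 13 in Irx3/5dHet and 40 in WT, are not drawn). For Avp the suprachiasmatic-like cells lie at 1092 and 1312, and the other classes between 44.9 and 229.

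Shares of cells with a UMI depend on depth, so each cell was thinned to 1000 UMIs, which left out 638 Irx3/5dHet and 940 WT cells. Oxt was then found in 8.39% of Irx3/5dHet cells (6.61% to 10.5%) and 3.55% of WT cells (2.66% to 4.63%), against 13.2% and 5.16% unthinned. Avp was found in 16.8% of Irx3/5dHet cells (14.3% to 19.5%) and 9.08% of WT cells (7.66% to 10.7%), against 24.2% and 13.5% unthinned. In oligodendrocyte-like cells, with a median of 1136 UMIs in Irx3/5dHet and 1303 in WT before thinning, the share with Oxt was 11.2% in Irx3/5dHet (5.28% to 20.3%) and 2.42% in WT (0.664% to 6.09%). In neurons outside the suprachiasmatic-like cluster, with medians of 1873 and 1522 UMIs, it was 7.19% in Irx3/5dHet (4.94% to 10.1%) and 2.80% in WT (1.45% to 4.84%). In both libraries this interval overlapped that of the oligodendrocyte-like cells. In suprachiasmatic-like neurons, with medians of 1505 and 1589.5 UMIs, the share with Oxt was 15.6% in Irx3/5dHet (6.49% to 29.5%) and 22.6% in WT (14.6% to 32.4%), and in WT it was above the oligodendrocyte-like interval. Without high cells, which carry the uncertain Oxt counts, it was 5.71% in Irx3/5dHet (0.700% to 19.2%) and 4.48% in WT (0.933% to 12.5%). The share of suprachiasmatic-like neurons with Avp, high cells included, was 48.9% in Irx3/5dHet (33.7% to 64.2%) and 43.0% in WT (32.8% to 53.7%). Without high cells it was 34.3% in Irx3/5dHet (19.1% to 52.2%) and 20.9% in WT (11.9% to 32.6%), against 8.75% (3.59% to 17.2%) and 4.24% (1.72% to 8.54%) in oligodendrocyte-like cells.

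The proportion of the genes in the low cells differed between the suprachiasmatic-like cells and the rest. In suprachiasmatic-like cells under 20 UMIs of either gene there were 7.92 Oxt UMIs per 100 Avp UMIs in Irx3/5dHet (3.33 to 16.2) and 6.75 in WT (3.87 to 11.02), with intervals that overlap those of the suprachiasmatic-like high cells. Per 100 Avp UMIs, cells other than neurons under 20 UMIs of either gene had 52.5 Oxt UMIs in Irx3/5dHet (39.8 to 69.0) and 33.1 in WT (23.9 to 45.3), and low neurons outside the suprachiasmatic-like cluster had 45.4 in Irx3/5dHet (36.1 to 56.9) and 24.6 in WT (15.9 to 36.9). Within a library the intervals of these neurons and of the cells other than neurons overlapped. Over all cells of a library the proportion was 92.1 in Irx3/5dHet and 11.99 in WT. Without the top families of both genes it was 12.5 in Irx3/5dHet and 8.38 in WT. The low cells outside the suprachiasmatic-like cluster were thus below the whole Irx3/5dHet library but above it once those families were left out, and above the WT library either way.

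The share of a peptide's UMIs in its top bead varied widely. In the Irx3/5dHet library the top bead held 89.7% of Oxt UMIs and 39.9% of Avp UMIs. It held 12.1% of those of Agrp and of Npy, 18.2% of Pomc, 16.7% of Cartpt, 9.79% of Sst and 41.1% of Vip. In the WT library it held 32.7% of Oxt, 43.0% of Avp, 18.5% of Agrp, 17.3% of Npy, 34.4% of Pomc, 11.7% of Cartpt, 24.4% of Sst and 18.5% of Vip. Among 3098 genes with at least 200 UMIs in the Irx3/5dHet library, 0 had a larger share in 1 bead than Oxt and 3 a larger share than Avp. Among 4680 such genes in WT, 5 had a larger share than Oxt and 2 than Avp. The order follows from the choice of the pair and is no test.

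The low level in cells other than neurons varied widely between peptides. In beads under 20 UMIs of the gene, 2 of 19 other listed peptides were above Oxt there in Irx3/5dHet and 7 of 19 in WT, 1 of 19 was above Avp in each library, and the median of the 19 was 6.13 CPM in Irx3/5dHet and 7.16 CPM in WT. In such beads, Npy had 62.3 CPM in these cells in Irx3/5dHet (47.7 to 80.0) and 29.9 CPM in WT (23.4 to 37.7). Cck, a leading gene of the pars tuberalis-like cluster, had 292 CPM in Irx3/5dHet (259 to 329) and 221 CPM in WT (202 to 241). Sst had 33.7 CPM in Irx3/5dHet (23.2 to 47.3) and 24.4 CPM in WT (18.5 to 31.6). Avp, at 167 CPM in Irx3/5dHet and 69.1 CPM in WT in such beads, was above Npy and Sst and below Cck in both libraries.

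**Figure D5:**
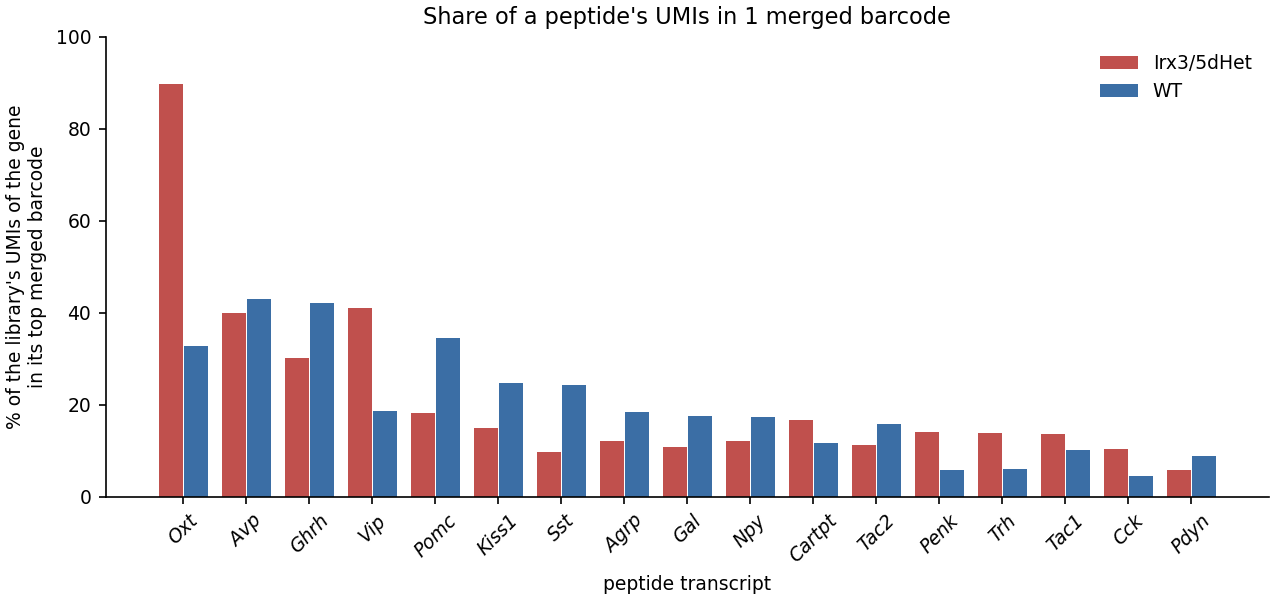
Share of a peptide gene's UMIs that lie in its top bead (barcodes merged by their first 11 bases), red Irx3/5dHet left of blue WT, for Oxt, Avp and the 15 other listed peptides with at least 50 UMIs in each library. The Oxt bar of Irx3/5dHet, at 89.7%, is the tallest, and no other bar passes 43.0%.

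The receptors were scarcely read. Oxtr, the oxytocin receptor, had 4 UMIs in Irx3/5dHet and 3 in WT, and Avpr1a, the vascular and brain vasopressin receptor, 10 and 17. In both libraries all Avpr1a UMIs lay in neurons, 3 of them in suprachiasmatic-like Avp high cells of WT. Avpr1b and Avpr2 were not among the genes listed for either library, so no value can be given for them. Cd38, an ectoenzyme needed for oxytocin release in mice, had 12 UMIs in each library, all in cells other than neurons. Lnpep, the aminopeptidase that breaks down both hormones, had 25 UMIs in Irx3/5dHet and 58 in WT, with a ratio of 0.645 (0.387 to 1.05).

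Of the genes that cut and store the prohormones, Pcsk1 stood out in the high cells outside the suprachiasmatic-like cluster. Those 8 Irx3/5dHet and 9 WT cells come from 5 and 6 beads, so the barcodes of 1 family are counted apart. Pcsk1, prohormone convertase 1, had 21 UMIs there in Irx3/5dHet (511 CPM, in 7 of 8 cells) and 4 in WT (231 CPM, in 4 of 9 cells), against 90.1 CPM and 58.1 CPM in neurons that were not high. Pcsk2, the second convertase, was at 0.679 times the level of these neurons, with both libraries summed. Scg2, a granule protein, had 365 CPM in Irx3/5dHet and 1672 CPM in WT in the high cells of other clusters, and 8352 CPM and 7020 CPM in the suprachiasmatic-like ones. Pcsk1n, in the high cells of other clusters, was at 0.760 times its level in neurons that were not high, with both libraries summed. Cpe, Pam, which amidates both peptides, Scg5, Scg3 and Chgb ranged from 0.908 to 1.25 times the level of other neurons in the high cells of other clusters. Both libraries together, Cadps had 2 UMIs there and Cadps2 had 4. Chga stood at 2.37 times, but 40 of its 47 UMIs in Irx3/5dHet came from the 1 cell with most of them. Over whole libraries, Pcsk1 was the only one of these 12 genes past 2-fold, with 68.1 CPM in Irx3/5dHet and 33.2 CPM in WT (ratio 2.06, 1.65 to 2.57). Its interval includes 2. Of all 10196 genes with at least 100 UMIs, 1.47% were at least 2-fold higher in Irx3/5dHet.

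The genes that led the high cells over other neurons were few. In the 13 Oxt high cells of both libraries, after Oxt (4475 UMIs) and Avp (5571 UMIs), high CPM ratios belonged to Sncg at 9.67 (24 UMIs in 9 cells), Adam23 at 6.27, Pcsk1 at 6.14, Nrip3 at 5.60 and Phyhipl at 3.25. Of these 13 cells, 8 are the printed families, so the list describes few beads. In the 55 Avp high cells, Oxt and Avp were followed by Rgs16 at 8.51 (186 UMIs in 35 cells), the granule peptide precursor Vgf at 7.32 (196 UMIs in 32 cells), Rorb at 6.28, Nrip3 at 5.62, the clock-related nuclear receptor Rora at 5.31 and the imprinted gene Nnat at 4.83. The 40 suprachiasmatic-like ones held 181 of the 186 Rgs16 UMIs and 195 of the 196 Vgf UMIs. They also held 74 of 76 UMIs of Rorb, 79 of 79 of Rora and 584 of 608 of Nnat. Apart from Nrip3, these genes thus describe the suprachiasmatic-like high cells rather than all Avp high cells.

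Across the clusters of each library with at least 20 cells, 36 sums in all, the pattern of log2(CPM + 10) most like that of each hormone gene was that of the other, with Pearson's r of 0.822 among 10196 genes. For Oxt the next were Dlx6 (0.580), Dlx1 (0.564), Ppp1r17 (0.551) and Gad1 (0.541). For Avp they were Ppp1r17 (0.713), Vgf (0.642), Cnksr2 (0.634) and Nrip3 (0.632). The sums share libraries and depth, and the extreme beads enter them, so these values only describe the clusters. Avp was highest by cluster at 12600 CPM in the 43 pars tuberalis-like cells of Irx3/5dHet, where 1 cell gave 854 of the 864 UMIs. Next were the suprachiasmatic-like cells, at 7049 CPM in Irx3/5dHet and 7742 CPM in WT.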

How the data were processed

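Single cells were captured by Drop-seq, and 1 pooled library per genotype was deposited. Its table holds UMI counts per gene and barcode, made by the authors before deposit. Per the submitters' processing notes, STAR 2.6.0b, Picard, Seurat 3 and build mm10 were used. The authors also deposited natural log values for both libraries in 1 table, which served only as an alternative cell set. Cells needed 300 genes or more, and no more than 20% of UMIs from mitochondrial genes. Scrublet marked 19 of 3889 cells (0.489%), too few for a caller that works, so doublets were kept. Cells were clustered together without Oxt and Avp (scanpy 1.11.5, 2000 variable genes, 30 components, 20 neighbours; leidenalg 0.10.2, resolution 1). A cluster was named "-like" from at least 3 markers, and 2 clusters stayed unnamed because none of their markers was among their top 10 genes. This last step was set after the data were seen and was not applied to the name neuron-like. It was applied to the neuron subtypes. There, a cluster of 97 cells led by Foxb1 had 3 markers passed but took no subtype name, and counts among the other neurons. CPM was taken from sums over a library's cells of a class. Counts carry exact Poisson, shares Clopper-Pearson and ratios exact conditional binomial intervals (scipy 1.17.1). Only the ratio intervals were tried on simulated data. These were Poisson totals per gene, without the concentration in single barcodes seen here, so coverage under such concentration was not tested. Transcripts and coordinates are those of GENCODE vM21 (GRCm38). The members and lists were chosen with earlier results of these data known. Named genes are the 5 with the highest correlation, the 8 leading the high cells (Oxt and Avp included), and all list genes; 1 leading gene is not reported here. Alternatives changed the filter, cell set, doublets, high limit, thinning, clustering and, after the data were seen, merged or left out barcode families. The libraries shared 1 barcode sequence.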

Additional observations from a re-analysis of the deposited data

Results flagged for a closer look

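Signal was found in barcodes that the cell rule left out. In 316 such Irx3/5dHet barcodes there were 120 Oxt UMIs (1071 CPM, 888 to 1281) and 37 Avp UMIs (330 CPM, 233 to 455). In 395 such WT barcodes there were 9 Oxt UMIs (62.4 CPM, 28.5 to 118) and 62 Avp UMIs (430 CPM, 329 to 551). Of the 120 Oxt UMIs, 94 lay in the barcode that continues the printed family, and the other 26 gave 233 CPM. For Avp, 1 WT barcode held 17 of the 62 UMIs, and the other 45 gave 313 CPM. In cells under 20 UMIs of either gene the levels were 73.2 CPM of Oxt and 182 CPM of Avp in Irx3/5dHet, and 24.1 CPM of Oxt and 128 CPM of Avp in WT. These barcodes are given because they lie outside the cells compared, and whether the levels differ was not tested.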

How the results depend on the processing

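Each genotype is 1 library, so no library could be left out and no test exists. No paired analysis was possible because the result comes from no test. Of 138 values for 14 results, 93 stayed within the main counting interval, 44 left it and 1 changed sign.

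The log2 ratio of Avp over all cells, 0.58, changed sign to -0.14 as a mean over cells, was 0.046 without the top cell of each library, was 0.64 with at least 500 genes, 0.66 without the top family of Avp and 0.48 without the top families of both genes. That of Oxt, 3.52, was 1.94 as a mean over cells, 3.71 without the top cell, 0.83 without the top family of Oxt and 1.06 without the top families of both genes. In cells under the high limit, the Oxt ratio of 0.59 was 0.30 at a limit of 50 UMIs and 1.60 under 20 UMIs of either gene, and the Avp ratio of 0.51 was 0.91 at 10, 0.17 at 50 and 0.79 with families merged.

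The percent of UMIs in high cells follows, Irx3/5dHet before WT. For Oxt it was 64.6% in WT at a limit of 10, 92.8% and 32.7% at 50, and 28.2% and 0% without the top families. For Avp it was 90.1% and 92.1% at 10, 83.9% and 78.5% at 50, 90.35% and 90.26% with at least 500 genes, 79.5% and 80.1% without the top families, and in WT 87.5% over every barcode and 90.6% with families merged.

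Shares of cells thinned to 500 UMIs were 4.39% and 2.31% for Oxt and 8.86% and 6.65% for Avp, and unthinned 13.2% and 5.16% for Oxt and 24.2% and 13.5% for Avp. Avp in suprachiasmatic-like neurons was 8462 and 8648 CPM with at least 500 genes. In Irx3/5dHet alone it was 7813 CPM at most 10% mitochondrial UMIs, 5592 over every barcode, 6197 in the merged table's barcodes, 6545 without doublets, 6458 with both genes in the clustering and 6246 with libraries clustered alone. Moves under another limit, depth or left-out barcode follow from what was left out, and for the others the cause was not tested. Merging or leaving out families, and the limit on either gene, were chosen after seeing the data. Depth limits the receptors and the classes under 100 cells.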
